A study of Mus musculus with 19 samples.

Results

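The regions described here were the promoters of mouse genes named Zfp (zinc finger protein) followed by a number, and the measurement was where SOX3 ChIP-seq peaks fell in them. Members were all protein-coding genes with such a symbol and a curated RefSeq transcript, each with the 2 kb either side of every annotated start site, which gave 394 of 20999 protein-coding genes and 502 of 26207 start sites. The rule uses the gene symbol and the annotation and no peak value, although the group was chosen with earlier results of these data known. The tissue was mouse testis at P7 (postnatal day 7), not a sorted cell fraction, and 2 replicate libraries were immunoprecipitated with SOX3 antibodies and compared with input chromatin. The labels list the same pair of SOX3 antibodies for both replicates and give no treatment, transgene or strain. The study's methods describe seminiferous tubules taken from several mice, so a peak cannot be assigned to a cell type of the testis. The series lists 19 samples, of which 4 came with a peak list, the other two being SOX3 ChIP-nexus.

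The peak lists held 58351 peaks in replicate 1 and 38832 in replicate 2. The lists themselves give no read counts. By the study's own account of its sequencing, replicate 2 had more reads than replicate 1, both in all and after duplicates were removed, so the shorter list came from the deeper library. Peak strength is described by the q score (−10log10 of the adjusted p-value, always above 30 in these lists) and by the log2 ratio of ChIP over input. An exact test over 2 replicates cannot reach a usual threshold, so none was made and shares are given for each replicate and as mean ± SD (n = 2), which here is the spread between these libraries. The study describes the replicates as independent biological ones, and the labels do not say which animals each came from.

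SOX3 is an HMG-box transcription factor that in the postnatal testis marks undifferentiated spermatogonia. Most Zfp genes encode C2H2 zinc finger proteins, in which each finger folds around a zinc ion held by cysteines and histidines and arrays of fingers read DNA sequence. Many carry a KRAB domain, which recruits the corepressor TRIM28 to silence retrotransposons and imprinted loci, and this class has multiplied by tandem duplication into clusters of related genes. A few genes with the same name belong to other classes, such as Zfp36 and its relatives, CCCH proteins that bind AU-rich mRNA and promote its decay. A C2H2 pattern was found in the translated coding sequence of all but 14 Zfp genes, with a median of 10 patterns and a highest count of 36.

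Zfp genes were called clustered where the body of another Zfp gene lay within 100 kb. This gave 225 clustered genes in 52 clusters and 169 single genes, on 20 chromosomes, with 93 genes on chromosome 7, 46 on chromosome 17 and 36 on chromosome 13. Promoter base composition was summarised by the CpG ratio, the observed over the expected number of CpG dinucleotides in the 1 kb centred on the start site. Its median was 0.541 at clustered and 0.667 at single Zfp start sites, and 0.577 at other start sites.

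The promoter sequences below (RefSeq, GRCm38.p6, the assembly also called mm10) show what clustered promoters with and without a SOX3 peak look like, with every CpG in capitals. Each runs from 250 bases before to 50 bases after the start site, 5′ to 3′ on the strand of the gene. Zfp963 (chr8:69749913-69750212, minus strand), Zfp605 (chr5:110109842-110110141, plus strand) and Zfp708 (chr13:67081496-67081795, minus strand) had a peak in both replicates. Zfp300 (chrX:21089180-21089479, minus strand), Zfp955b (chr17:33289294-33289593, plus strand) and the single gene Zfp433 (chr10:81704575-81704874, plus strand) had none, and were the genes without a peak whose CpG ratio was highest in their class.
Zfp963: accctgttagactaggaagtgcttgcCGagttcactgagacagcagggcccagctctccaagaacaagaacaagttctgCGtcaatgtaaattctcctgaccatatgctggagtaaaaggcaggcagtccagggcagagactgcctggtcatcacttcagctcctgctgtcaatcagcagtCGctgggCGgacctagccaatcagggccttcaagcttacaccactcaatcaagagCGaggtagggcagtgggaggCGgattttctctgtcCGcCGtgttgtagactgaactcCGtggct
Zfp605: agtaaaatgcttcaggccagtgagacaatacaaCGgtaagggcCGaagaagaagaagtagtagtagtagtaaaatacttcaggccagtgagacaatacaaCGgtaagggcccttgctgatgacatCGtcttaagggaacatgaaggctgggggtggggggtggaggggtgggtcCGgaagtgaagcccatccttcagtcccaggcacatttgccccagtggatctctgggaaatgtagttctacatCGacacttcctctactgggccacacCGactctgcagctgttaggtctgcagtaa
Zfp708: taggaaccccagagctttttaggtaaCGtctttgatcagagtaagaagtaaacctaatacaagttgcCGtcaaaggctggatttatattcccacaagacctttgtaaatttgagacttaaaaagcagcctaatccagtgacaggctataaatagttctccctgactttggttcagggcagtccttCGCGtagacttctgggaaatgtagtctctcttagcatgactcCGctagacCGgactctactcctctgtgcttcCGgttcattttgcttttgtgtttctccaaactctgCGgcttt
Zfp300: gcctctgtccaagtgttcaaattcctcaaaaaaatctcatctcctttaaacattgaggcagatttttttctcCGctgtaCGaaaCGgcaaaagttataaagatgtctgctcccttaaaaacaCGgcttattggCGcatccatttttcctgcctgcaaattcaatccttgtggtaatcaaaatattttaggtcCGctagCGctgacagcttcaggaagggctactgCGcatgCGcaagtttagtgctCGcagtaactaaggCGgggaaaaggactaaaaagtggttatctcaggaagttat
Zfp955b: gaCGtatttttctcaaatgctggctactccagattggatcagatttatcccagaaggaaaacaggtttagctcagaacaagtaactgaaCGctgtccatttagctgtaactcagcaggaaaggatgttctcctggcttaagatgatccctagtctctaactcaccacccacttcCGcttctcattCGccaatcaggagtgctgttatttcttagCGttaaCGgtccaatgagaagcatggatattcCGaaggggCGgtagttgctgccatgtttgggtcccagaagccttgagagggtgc
Zfp433: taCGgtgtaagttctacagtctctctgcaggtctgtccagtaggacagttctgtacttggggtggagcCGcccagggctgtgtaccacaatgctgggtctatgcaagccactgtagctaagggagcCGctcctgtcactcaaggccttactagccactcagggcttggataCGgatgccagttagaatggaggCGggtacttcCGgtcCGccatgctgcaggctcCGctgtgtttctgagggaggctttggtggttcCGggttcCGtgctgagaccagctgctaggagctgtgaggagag

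There were 9 in Zfp963, 7 in Zfp605 and 8 in Zfp708, against 11 in Zfp300, 8 in Zfp955b and 10 in Zfp433, whose group was picked for a high CpG ratio. Over all matched Zfp promoter sequences of this kind the median number of CpGs was 17 at genes with a peak in both replicates, 9 at genes with a peak in 1 and 5 at genes with none. AACAAT, letters that SOX proteins bind, was searched on both strands as the only motif. It occurred in 6.78% of the 398 Zfp promoter sequences (328 genes matched by symbol) and in 8.89% of the 20487 promoter sequences of all protein-coding genes.

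The first question was how often a Zfp promoter carried a SOX3 peak. In replicate 1 it was 345 of 394 genes (87.6%), where 67.8% of all protein-coding genes had one. In replicate 2 it was 292 genes (74.1%), against 60% of all protein-coding genes. The mean was 80.8 ± 9.51% (SD, n = 2) for Zfp genes and 63.6 ± 5.45% for other protein-coding genes, and in each replicate the Zfp share was the higher. Both replicates had a peak at 289 Zfp genes (73.4%, with 57.9% of all genes), replicate 1 alone at 56, replicate 2 alone at 3, and neither at 46. Placing the start site itself under a peak was a stricter requirement. A peak covered a start site of 335 Zfp genes in replicate 1 (85.0%, and 61.4% of other genes) and of 279 in replicate 2 (70.8%, and 53.1%).

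Peak strength ranged widely among the 289 genes found in both replicates. The q score of the strongest promoter peak ran from 37.5 to 834 (median 187) in replicate 1 and from 30.4 to 314 (median 81.3) in replicate 2, and was the higher in replicate 1 for 281 genes. Across these genes the q scores of the replicates had a Spearman's rho of 0.818 and the log2 ratios one of 0.414. These are descriptions over genes that share libraries and are not independent. The peaks of the replicates overlapped at 288 of the 289 genes. Genes found in replicate 1 alone had a median q score of 62.0 there. Of genes with a q score of 100 or more in replicate 1, 237 of 246 (96.3%) also had a peak in replicate 2, and of those between 30 and 40, 3 of 11 did.

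**Figure D1:**
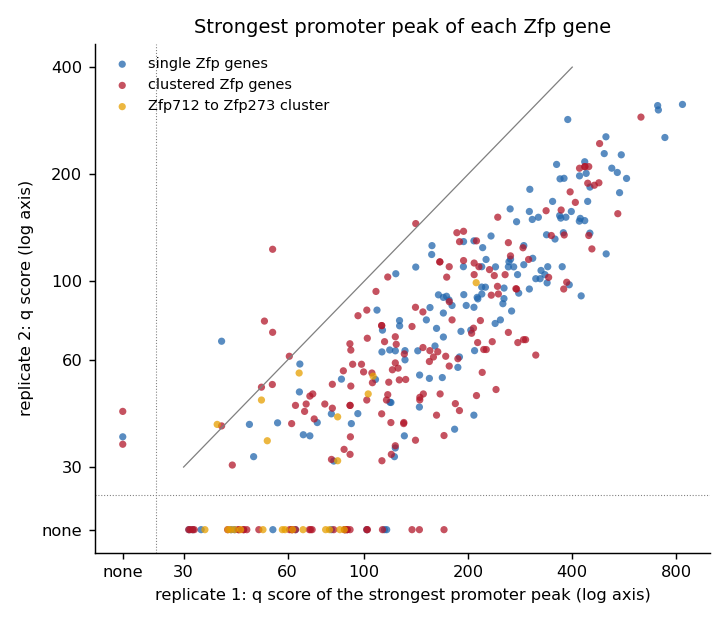
Each point is a Zfp gene with a promoter peak, placed by the q score of its strongest peak in replicate 1 (horizontal) and replicate 2 (vertical), both on log axes, with genes lacking a peak in a replicate drawn at "none". The grey diagonal marks equal scores, and 281 of the 289 genes with both peaks lie below it. Most genes lacking a peak in replicate 2 have low scores in replicate 1, and the cluster from Zfp712 to Zfp273 (orange) holds 14 of them.

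The 5 Zfp genes with the best mean rank over both lists were Zfp36l2, Zfp36l1, Zfp143, Zfp236 and Zfp24. Zfp36l2 (chr17:84183924-84187947), which encodes an mRNA decay factor, reached a q score of 834 in replicate 1 and 314 in replicate 2, at a log2 ratio of 5.72 and 4.29. Zfp36l1 (chr12:80107760-80113013), of the same family, had q scores of 707 and 312. Its peaks were wide, reaching from within the gene to beyond its start, and covered the start site in both lists. Zfp143 (chr7:110061689-110095396), an activator bound at many promoters, had q scores of 710 and 303. Zfp24 (chr18:24009717-24020813) had 632 and 289, and Zfp236 (chr18:82593593-82692915), with 30 C2H2 patterns, had 742 and 254. All but Zfp24 were single genes, and their CpG ratios lay between 0.748 and 1.01. No C2H2 pattern was found in Zfp36l1 and Zfp36l2, and the other 3 encode finger arrays.

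A list of 17 Zfp genes with known roles gave a peak in both replicates at 16, where 73.4% of all Zfp genes and 57.9% of all protein-coding genes had one. The list was not matched for CpG ratio, and all but Zfp809 (0.538) and Zfp541 had a ratio of 0.6 or more. Among all Zfp genes, 89.2% of those between 0.6 and 0.8 and 98.5% of those from 0.8 upwards had a peak in both. Among regulators of imprinting, Zfp57 (q scores 118 and 64.0) and Zfp445 (208 in replicate 1 and 112 in replicate 2) had peaks in both, although the replicate 2 peak of Zfp57 covered none of its 4 annotated start sites. Among repressors of this class, Zfp568 (456 and 123), which silences a placental Igf2 transcript, and Zfp809 (265 and 118), which targets retroviral sequence, had them too. Zfp281 (208 and 130), Zfp148 (325 and 107), Zfp335 (540 and 202), Zfp217 (392 and 97.7), Zfp318 (521 and 208) and Zfp207 (383 and 151), which takes part in spindle assembly, also had a peak in each list.

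The lowest replicate 2 scores among these 16 genes were at developmental regulators of neural and mesenchymal cells. Zfp423 had q scores of 80.3 and 42.3 and Zfp521 had 119 and 45.6, at CpG ratios of 0.823 and 0.933. Zfp36 itself had 425 and 90.9, and its strongest replicate 2 peak was centred at −2423 bp from the start site, with a further peak of q score 84.2 over the start. Zfp541 (chr7:16061775-16096340), needed for meiotic prophase in spermatocytes, was the gene of the list with no peak in either replicate. Its RefSeq start had a CpG ratio of 0.178. With GENCODE transcripts, whose start sites for this gene differ, both replicates had a peak at Zfp541, so its call rests on the annotation.

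Peaks lay close to the start site. The strongest peak covered a start site of its gene at 331 genes in replicate 1 and 275 in replicate 2. Median width over Zfp start sites with a peak was 1430 bp and 1217 bp, and the median midpoint lay 68 bp and 73.5 bp downstream of the start. Other start sites with a peak had median widths of 1663 bp and 1345 bp, and all peaks of the lists 738 bp and 697 bp. At the start itself 82.5% of Zfp sites were covered in replicate 1 and 68.7% in replicate 2. The coverage was 20.9% and 14.7% at 1000 bp upstream, and 23.1% and 11.6% at 1000 bp downstream. Peaks of clustered genes were the narrower, with a median of 1291 bp against 1793 bp at single genes in replicate 1 and 1037 bp against 1485 bp in replicate 2. At 1000 bp upstream 11.6% of clustered and 30.9% of single start sites were covered in replicate 1, and 7.34% and 22.6% in replicate 2. Clustered and single sites were not matched for CpG ratio here. From ratios below 0.4 to those of 0.8 or more, median width at Zfp sites rose from 965.5 to 2053.5 bp in replicate 1. In replicate 2 it rose from 920.5 to 1653.5 bp.

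**Figure D2:**
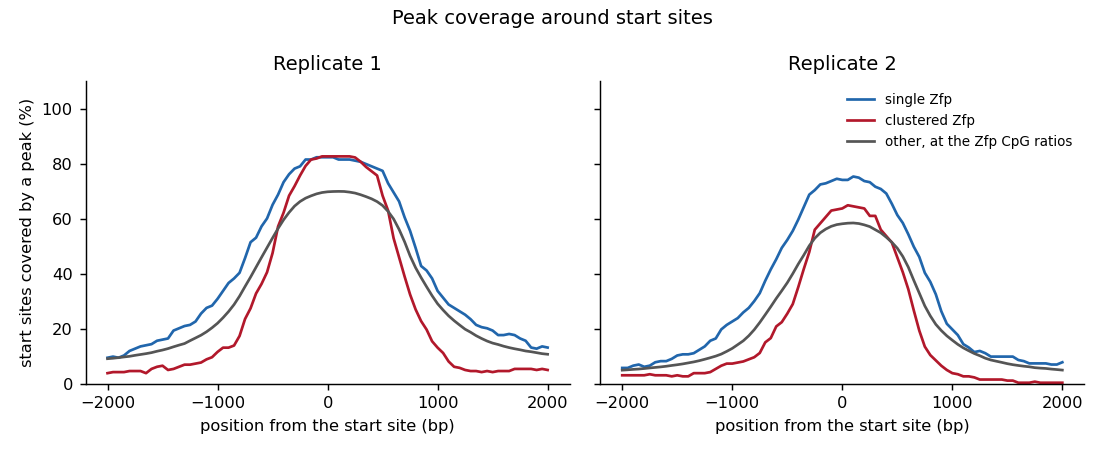
Share of start sites covered by a SOX3 peak (percent, vertical) at each position from the start site (bp, horizontal) for clustered Zfp sites (red), single Zfp sites (blue) and other sites averaged with the weights of the CpG ratios of all Zfp sites (grey), in each replicate. At the start site clustered and single sites reach 82.6% and 82.3% in replicate 1, and 63.7% and 74.1% in replicate 2, and the clustered curve is the narrower in both.

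A promoter window can hold the peak of a neighbour. The strongest peak covered the start of another gene as well as that of the Zfp gene at 43 genes in replicate 1 and 35 in replicate 2, and only that of another gene at 4 genes in each. Zfp605 had q scores of 447 and 210, the second highest mean rank among clustered genes outside chromosome 18, but this peak covered the start of Gtpbp6, and the peaks over the start of Zfp605 had q scores of 53.9 and 41.5. The promoter sequence of Zfp605 printed above therefore lies outside its strongest peak. At Zfp35 the replicate 1 peak of q score 170 covered the start of Zscan30, and the peak over its own start had a q score of 73.1. In each list 4 peaks were the strongest of 2 Zfp genes at once. These pairs were Zfp27 and Zfp383, Zfp944 and Zfp758, Zfp942 and Zfp943, and Zfp668 and Zfp646.

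CpG ratio and peak calls varied together among Zfp genes. The median CpG ratio was 0.685 at genes with a peak in both replicates, 0.472 at genes with a peak in 1 replicate and 0.331 at the 46 genes with none. Of genes with a ratio of 0.8 or more, all 67 had a peak in replicate 1 and 66 in replicate 2. Of the 75 genes with a ratio below 0.4, 39 had a peak in replicate 1 (52.0%) and 22 in replicate 2 (29.3%), against 22.3% and 14.8% of other genes in this range. These shares are not at equal CpG ratio, as the median within the range was 0.334 at Zfp genes and 0.183 at other genes. Of the 46 Zfp genes without a peak, only Zfp433 had a CpG ratio of 0.6 or more (0.676). The share of repeat-masked bases in the 1 kb window also differed, with a median of 18.3% at genes without a peak and 8.49% at genes with a peak in both.

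Start sites were then compared with those of other genes at equal CpG ratio, in bins of 0.1. A peak lay within 2 kb of 86.9% of Zfp start sites in replicate 1 and 74.1% in replicate 2. Other start sites, reweighted to the CpG ratios of the Zfp sites, had a peak at 77.2% and 67.3%. The difference was 9.63 and 6.78 percentage points (mean 8.20 ± 2.02, SD, n = 2), larger than its spread between replicates, where without regard to CpG ratio it was 19.8 and 15.3. It ranged from 5.38 with GENCODE transcripts to 12.8 with peaks found in both lists. The difference was largest at low to intermediate CpG ratios in replicate 1. Between 0.3 and 0.4, 40 of 55 Zfp start sites had a peak in replicate 1 (72.7%, against 45.5% of other sites), and 23 did in replicate 2 (41.8%, against 31.8%). Between 0.6 and 0.7 the shares were 99.1% against 92.8%, and 87.4% against 81.9%.

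**Figure D3:**
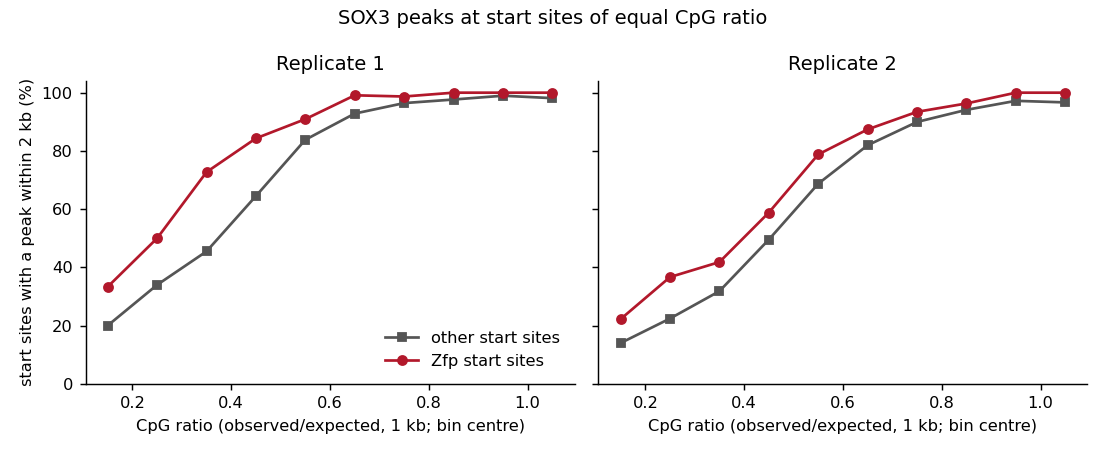
Share of start sites with a SOX3 peak within 2 kb (percent, vertical) in bins of CpG ratio (horizontal, bin centres) for Zfp start sites (red circles) and other start sites (grey squares) in each replicate, in bins with 5 or more Zfp sites. The Zfp share is the higher in every bin drawn, with 40 of 55 Zfp sites against 45.5% of other sites between 0.3 and 0.4 in replicate 1, and the curves meet near 100% at the highest ratios.

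The difference was positive for both arrangements of genes. For clustered start sites it was 12.2 points in replicate 1 and 4.85 in replicate 2 (mean 8.54 ± 5.23), and for single start sites 6.84 and 8.83 (7.84 ± 1.41). Where a peak was present, the median q score at Zfp start sites was above that at other start sites in each of 4 CpG ranges and both replicates. Below a ratio of 0.4 it was 66.8 against 51.8 in replicate 1 and 54.2 against 43.8 in replicate 2. Between 0.6 and 0.8 it was 184 against 172 and 83.6 against 77.7. Without regard to CpG ratio the median q score was 162.6 against 168.3 in replicate 1 and 83.6 against 80.0 in replicate 2. The median log2 ratio did not show the same order throughout. In replicate 1 it was lower at Zfp start sites in each range below 0.8 (2.88 against 2.96 below 0.4), and higher above. In replicate 2 it was lower between 0.4 and 0.8 (2.44 against 2.54 between 0.4 and 0.6). It was higher below 0.4 (2.91 against 2.73) and from 0.8 upwards.

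The comparison of clustered with single Zfp genes gave a different answer in each replicate. In replicate 1 a promoter peak was found at 197 of 225 clustered genes (87.56%) and 148 of 169 single genes (87.57%). In replicate 2 it was 155 (68.9%) and 137 (81.1%), a difference of −12.2 percentage points. The mean difference was −6.10 ± 8.60 (SD, n = 2), less than the spread between replicates. Single genes were then reweighted to the CpG ratios of the clustered genes, in bins of 0.2. The difference was then 7.84 in replicate 1 and −3.09 in replicate 2, so the mean changed sign (2.37). Of clustered genes with a peak in replicate 1, 77.7% also had one in replicate 2, against 91.9% of single genes and 85.4% of all protein-coding genes. These shares were not matched for CpG ratio. Below a ratio of 0.4 they were 43.8% of clustered and 85.7% of single genes, and between 0.4 and 0.6 72.6% and 85.7%. Between 0.6 and 0.8 they were 89.7% and 89.9%, and from 0.8 upwards 100% and 98.0%. Peaks of clustered genes had the lower scores, with a median q score over start sites of 120 against 219 in replicate 1 and 64.2 against 98.3 in replicate 2. These scores were not matched for CpG ratio.

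The low-CpG range is where arrangement and replicate crossed. Below a ratio of 0.4, 32 of 52 clustered genes had a peak in replicate 1 (61.5%) and 15 in replicate 2 (28.8%). Of the 23 single genes in this range 7 had a peak in each replicate (30.4%). Within the range the median CpG ratio was 0.338 at clustered and 0.284 at single genes, so they were not matched. Between 0.6 and 0.8 all 87 clustered genes had a peak in replicate 1 and 78 in replicate 2, against 69 and 62 of 70 single genes. Many genes of a cluster resemble each other in sequence, and the authors' aligner placed reads that matched several positions at random among them. Its part in these counts was not tested.

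Clusters differed among themselves in the share of genes with a peak. Small groups vary widely in such a share, and 23 of the clusters held 2 genes. A peak was found at every gene of 36 of the 52 clusters in replicate 1, of 20 in replicate 2 and of 19 in both. Replicate 2 had fewer genes with a peak than replicate 1 in 24 clusters and more in 1, the pair Zfp120 and Zfp937. The largest cluster, 23 genes over 788 kb from Zfp712 to Zfp273 (chr13:67038594-67827000), had a peak at all 23 genes in replicate 1 and at 9 in replicate 2. Its scores in replicate 1 were low, from 34.6 to 211 with a median of 62.0, at a median CpG ratio of 0.400. Zfp708, printed above, had the highest scores of the cluster in both lists (211 and 99.0). Zfp748 had the highest CpG ratio (0.689), with a q score of 85.0 in replicate 1 and no peak in replicate 2. The 9 genes found in both replicates had a median q score of 83.8 in replicate 1, and the 14 found in replicate 1 alone one of 58.5. Without this cluster the clustered share was 86.1% in replicate 1 and 72.3% in replicate 2.

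Other large clusters had a peak at nearly all genes in both replicates. On chromosome 7 the 15 genes from Zfp84 to Zfp146 (chr7:29768552-30169775) had a peak at 14 genes in each replicate and at 13 in both. Zfp568 had the highest scores there, and Zfp940 had a peak in replicate 2 alone (q score 43.0). On chromosome 17 the 13 genes from Zfp677 to Zfp943 (chr17:21383707-21994366) had 13 and 12, with Zfp760 highest in replicate 1 (220, and 55.4 in replicate 2) and Zfp677 in replicate 2 (123). The highest median score among clusters of 5 or more genes belonged to the 5 genes from Zfp868 to Zfp866 (chr8:69610654-69774911), at 444 and 158. All 5 had a peak in both, and Zfp963, printed above, had 480 and 244.

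A second pair of large clusters had fewer peaks in replicate 2 or in both. The 10 genes from Zfp180 to Zfp94 (chr7:24081877-24316698) had a peak at all 10 in replicate 1 and at 5 in replicate 2, with Zfp61 highest (180 and 77.8). The 9 genes from Zfp978 to Zfp933 (chr4:147124882-147849126) had 4 and 3, at a median CpG ratio of 0.273. Zfp978 was highest there (176 and 87.5), and with GENCODE transcripts it had no promoter peak in either replicate. Zfp991, the gene without a peak in that cluster with the highest CpG ratio, had a ratio of 0.327. No gene had a peak in either replicate in 4 clusters of 9 genes in all. These were Zfp972, Zfp971 and Zfp931, Zfp442 and Zfp345, and Zfp968 and Zfp965 on chromosome 2, and Zfp987 and Zfp600 on chromosome 4. Their median CpG ratios lay between 0.220 and 0.355.

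**Figure D4:**
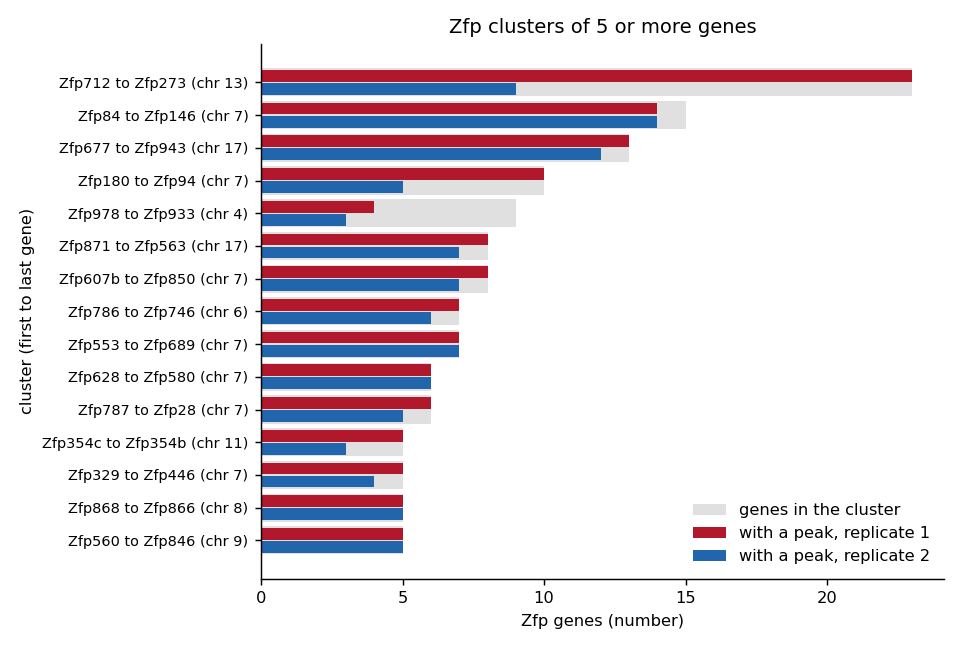
Number of Zfp genes (horizontal) in each cluster of 5 or more genes (grey bars) and of those with a promoter peak in replicate 1 (red) and replicate 2 (blue), with clusters named by their first and last gene. The 23-gene cluster on chromosome 13 has 23 genes with a peak in replicate 1 and 9 in replicate 2, while the 15-gene cluster on chromosome 7 has 14 in each.

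Genes with a peak in a single replicate had low scores. The highest q scores among the 56 genes of replicate 1 alone were those of Zfp35 (170, over the neighbouring start), Zfp975 (144) and Zfp128 (137). Zfp975 and Zfp128 were clustered genes on chromosome 7 with CpG ratios of 0.406 and 0.541. The 3 genes of replicate 2 alone were Zfp940 (43.0), Zfp957 (36.5) and Zfp937 (34.8), with CpG ratios of 0.467, 0.201 and 0.300. Zfp955a and Zfp955b, an adjacent pair without a peak, had the same CpG ratio (0.534) and GC share (50.4%). They also had the same number of C2H2 patterns (10) and protein length (545 residues). Any reads that matched both genes were placed at random between them, and the part of this in their calls was not tested.

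The last comparison concerned the 3′ end, where the long last exon of C2H2 genes encodes the finger array. Counting peaks within 2 kb of a transcript end that touched no promoter window, 57 Zfp genes had one in replicate 1 (14.5%, where 20.7% of all protein-coding genes did). In replicate 2 39 did (9.90%, with 13.3% of all genes), and in both replicates 21 (5.33%, with 8.24%). The difference from other genes was −6.40 and −3.49 percentage points (mean −4.94 ± 2.06, SD, n = 2), larger than its spread. Clustered genes had 10.7% and 6.67%, and single genes 19.5% and 14.2%, beside 20.9% and 13.4% of other genes. Over the last exon instead, the Zfp share was 12.4% and 6.60% and that of other genes 12.1% and 6.64%, so the difference depended on how the 3′ end was drawn. Gene length, which limits how much of a 3′ window lies outside promoters, was not matched.

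The 3′ peaks scored lower than the promoter peaks of Zfp genes and near the median of all peaks. Their median q score was 41.2 in replicate 1 and 37.7 in replicate 2, beside 41.4 and 39.5 over all peaks of the lists. At Zfp start sites with a peak the median was 162.6 and 83.6. Of the 3′ peaks, 11 and 3 had a score above 60, and 25 and 20 overlapped the last exon. Zfp771 (chr7:127242996-127254872) stood above the rest, with 3′ peaks of q score 334 and 179 that overlapped its last exon, beside promoter peaks of 348 and 134. Zfp219 had 3′ peaks of 73.4 and 57.6, Zfp467 of 77.4 and 53.3, Zfp239 of 67.3 and 50.3, and Zfp653 of 93.6 and 39.2, all overlapping the last exon. Zfp385a had 3′ peaks of 76.1 and 39.5. Its promoter held a peak in replicate 1 alone (q score 31.8) with RefSeq transcripts and in both replicates with GENCODE. Zfp865 (58.4 and 53.5) and Zfp420 (56.4 and 39.2) had peaks near the 3′ end outside the last exon.

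**Figure D5:**
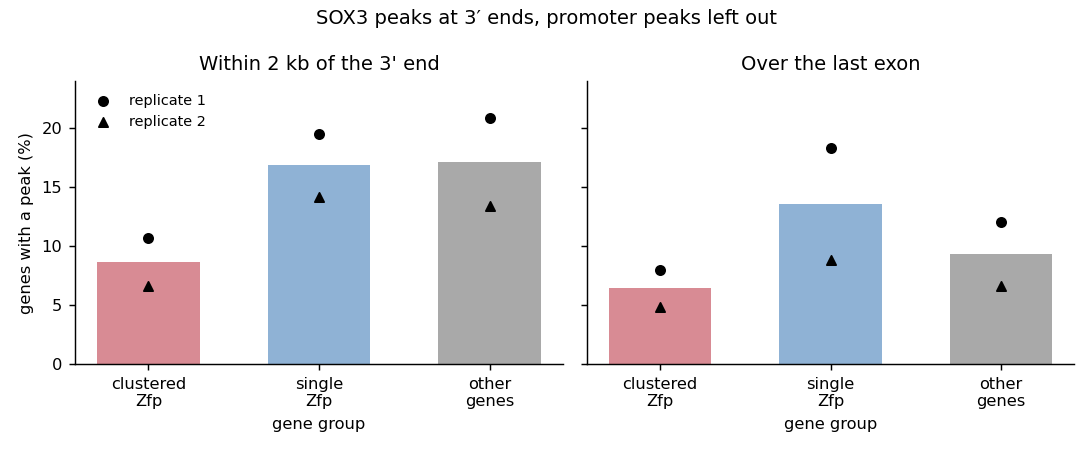
Share of genes (percent, vertical) with a SOX3 peak that touched no promoter window, within 2 kb of the 3′ end (left) and over the last exon (right), for clustered Zfp genes, single Zfp genes and other protein-coding genes, with bars at the mean of the replicates and points for each (circle, replicate 1, triangle, replicate 2). Clustered genes are lowest in both panels (10.7% and 6.67% on the left), and single genes lie near other genes on the left and above them on the right.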

How the data were processed

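SOX3 ChIP-seq of P7 mouse testis was analysed from 2 peak lists, 1 per replicate. According to the study's methods the authors aligned reads to mm10 with Novoalign 4.04.01, placing reads with several matches at random, removed duplicates with Picard 2.7.1 and called peaks with USeq 8.9.6. The deposited lists have no header, so the names p score, q score (a score of −10log10 of the adjusted p-value) and log2 ratio (ChIP over input, normalised by the authors) were inferred from the layout and the values. The deposited ChIP-nexus lists, from MACS 2.1.1, give a fold ratio for each peak, and only their positions were used. The methods describe removing blacklisted regions from peaks, without saying whether the lists of single replicates used here had passed that step.

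Start sites, 3′ ends and exons came from RefSeq curated transcripts (GRCm38.p6, chromosomes 1 to 19, X and Y). A peak counted with an overlap of 1 bp with the 2 kb either side of a start site or 3′ end. Zfp genes whose bodies lay within 100 kb were joined into clusters. The CpG ratio was computed over 1 kb and binned by 0.1, with bins joined until each held 20 other start sites, and shares of other sites were averaged with the weights of the Zfp sites. A gene took the highest CpG ratio of its start sites. Clustered and single genes were compared at equal CpG ratio in wider bins of 0.2, joined until each held 5 single genes. C2H2 patterns were cysteines and histidines at C2H2 spacing in the translated longest coding sequence. 1 gene is not reported here, and 2 had no curated transcript. Overlaps were checked against bedtools 2.31.1 and the averaging was tested on simulated data. Peak lists hold no counts, so no interval or test that needs depth was computed, and no test over genes was made because they are not replicates.

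The members, the list of genes with known roles and the comparisons were chosen with earlier results of these data known. Named genes were those 17, the 5 with the best mean rank of the q score, the best-ranked and the highest-CpG unoccupied gene of each of the 5 largest clusters, up to 3 per replicate with a peak there alone, and up to 8 with 3′ peaks in both. Genes named for a neighbouring start, a shared peak, a cluster without peaks or a class limit were chosen after their values were seen. Alternatives covered the q score (above 60), the overlap rule (50%), the window (1 kb, 5 kb), the annotation (GENCODE M21), the CpG window, the cluster distance and leaving out each replicate. Leaving out the largest cluster was added after seeing the data.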

Additional observations from a re-analysis of the deposited data

How the results depend on the processing

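The 4 main results were recomputed in 49 alternative values, of which 38 stayed within the spread between replicates. With 2 replicates, a value with a replicate left out always falls within that spread, so those alternatives in the count could not fail. The share of Zfp genes with a promoter peak (80.8%) was 64.0% with q scores above 60 and 69.9% with peaks covered over 50% by the other replicate, and 74.1% to 87.6% with a replicate left out. The difference from other start sites at equal CpG ratio (8.20 percentage points) was 12.4 and 12.8 under the same pair of settings and 5.38 with GENCODE transcripts, and 6.78 to 9.63 with a replicate left out. It was positive under every alternative run. The difference between clustered and single genes (−6.10) was −16.5 with q scores above 60, 2.37 at equal CpG ratio, where it changed sign, and −12.2 to −0.018 with a replicate left out, so replicate 2 carried it. Without the largest cluster it was −5.11. The share with a 3′ peak outside promoters (12.2%) was 1.78% with q scores above 60, 3.81% with peaks covered over 50%, 17.0% with 5 kb windows and 17.0% with promoter peaks counted, and 9.90% to 14.5% with a replicate left out. The causes were not tested. Of 38 named genes, 16 changed their number of replicates with a promoter peak under some alternative, 10 of them losing a replicate with q scores above 60. No paired analysis was possible because no result comes from a test and there is a single group of 2 libraries. The lists hold no counts, so a promoter without a peak was not detected as bound in that list, which does not show that SOX3 was absent.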

Other observations

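The number of C2H2 patterns in the encoded protein did not order the promoters. A peak was found in replicate 1 and replicate 2 at 94.1% and 83.8% of the 68 Zfp genes with 1 to 5 patterns, at 89.1% and 78.2% of the 119 with 6 to 10, at 83.5% and 64.6% of the 127 with 11 to 15, and at 89.4% and 75.8% of the 66 with 16 or more. Their median CpG ratios were 0.796, 0.641, 0.592 and 0.552, in the same order.

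Zfp genes on chromosomes 2, 4, 10, 11 and X had shares below those of all Zfp genes in both replicates. On chromosome 2 a peak was found at 15 of 27 genes in replicate 1 and 13 in replicate 2, at a median CpG ratio of 0.362, and on chromosome 4 at 15 and 13 of 26, at 0.395. On chromosome 10 it was 4 and 3 of 6 genes, and on chromosome 11 it was 18 and 15 of 21. On chromosome 13, which holds the largest cluster, 33 of 36 genes had a peak in replicate 1 and 18 in replicate 2. On the X chromosome 6 of 9 Zfp genes had a peak in replicate 1 and 5 in replicate 2, where 45.0% and 32.1% of the other X-linked protein-coding genes did. Zfp711 had the highest X-linked scores (220 and 124), while Zfp300, Zfp36l3 and Zfp92 had no peak. These chromosomes were singled out after their values were seen.

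In the SOX3 ChIP-nexus lists, which held 110 and 18 peaks on these chromosomes, no peak lay within 2 kb of any of the 502 Zfp start sites. Of the 25705 other start sites, 40 had a peak in replicate 1 and 0 in replicate 2. With so few start sites holding a peak, these lists cannot show whether Zfp sites differ from others. The study's account of its sequencing gives these libraries far fewer unique reads than the ChIP-seq libraries, and the part of depth in this count was not tested.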
